A study of Mus musculus with 9 samples.

Results

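Translation initiation and elongation factor genes were examined in RNA of developing mouse cortex, dissected at embryonic day 12 to 13 from wild-type embryos of the CD1 strain. The genes were those whose single symbol in the array's probe-to-gene table begins with Eif1 to Eif6 or with Eef1 or Eef2, leaving out the cap-binding Eif4e family and the eIF2 kinases (Eif2ak). This gave 53 genes out of the 22180 genes with a row of their own on the Mouse Gene 2.0 ST array, and where a gene had several rows the one with the highest mean over all arrays was used. Input, IgG and Pum2 RNA were compared. The inputs were total RNA of cortical lysate that met no antibody, the IgG precipitates were RNA recovered with normal rabbit IgG, and the Pum2 precipitates were RNA recovered with a rabbit antibody to Pumilio2 (Pum2). Both precipitates were made by RNA immunoprecipitation with the Magna RIP kit. Each kind was measured on 3 arrays labelled as biological replicates. All embryos were wild type, and the labels do not say how many embryos went into a replicate, so p-values measure the spread between these arrays.

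Initiation begins when eIF2, carrying GTP and the initiator tRNA, joins the small ribosomal subunit together with eIF1, eIF1A, eIF3 and eIF5. The eIF4 factors bring the mRNA: eIF4G is the scaffold, eIF4A the RNA helicase, and eIF4B and eIF4H stimulate the helicase. After the start codon is found, eIF5 promotes hydrolysis of the GTP on eIF2, eIF5B promotes joining of the large subunit, and eIF2B exchanges the GDP on eIF2 for GTP so that it can be used again. In elongation, eEF1A delivers aminoacyl-tRNA, the eEF1B subunits recharge eEF1A, eEF2 drives translocation, and eIF5A helps the ribosome past stretches that stall. Pum2 is an RNA-binding protein of the Pumilio family that binds a short motif, mostly in the ends of mRNAs past the coding region, and represses or destabilises them.

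Arrays of the same kind of RNA correlated at r = 0.994 to 0.996 over all genes, and Pum2 and input arrays at 0.977 to 0.979. As a check of the labelled tissue, all 7 measured markers of radial precursors and all 7 of intermediate progenitors and young neurons lay above the median gene (log2 signal 6.08), with array medians of 9.49 to 9.90 and 10.11 to 10.53. Only 1 of 4 ganglionic eminence markers did so. Among other cells, the array median of the 4 endothelial markers was 8.37 to 8.54 in input, 8.07 to 8.57 with IgG and 8.76 to 9.06 with Pum2, and that of the 4 meningeal markers was 7.31 to 7.53, 7.78 to 8.21 and 7.96 to 8.17. The 4 microglial markers had array medians of 5.80 to 6.46 in all groups. All 3 embryonic red cell globin genes measured (Hbb-y, Hbb-bh1 and Hba-x) were lower with Pum2 than in input, and their array median was 9.98 to 10.26 in input, 9.96 to 10.23 with IgG and 9.40 to 9.96 with Pum2. The part of these cells in the factor genes' differences was not tested. In such bulk RNA, the number of cells of a type, the RNA per cell and, in a precipitate, the recovery of RNA cannot be told apart. After normalization a difference is one of relative signal, not of absolute amount.

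Between the Pum2 and IgG precipitates, the factor genes were split. Of 53, 14 were higher with Pum2, led by Eif6 (1.76-fold), Eif2b2 (1.71-fold) and Eef1d (1.60-fold), and 9 were lower, led by Eif4g2 (1.70-fold), Eif4a1 (1.56-fold) and Eif4a2 (1.42-fold). The other 30 did not pass the test. A gene was called when limma's Benjamini-Hochberg adjusted p over all 22180 genes was below 0.05, and by that rule 19.4% of all genes were higher and 11.4% lower. The factor genes' shares were 26.4% higher and 17.0% lower, and their median log2 difference was 0.02 against 0.04 for all genes. Their arrays lay entirely above the IgG arrays for 18 genes and entirely below for 13, where 25.9% and 15.4% of all genes did so. The median factor gene had a mean log2 signal of 9.43, which 88.7% of all genes did not reach, and among the 2507 genes at or above that signal the called shares were 38.5% higher and 21.4% lower, against 9 and 4 of the 27 factor genes there. These counts are near that background.

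Against the input the balance was toward lower values. In Pum2 over input 13 factor genes were higher and 19 lower, where 21.6% and 13.1% of all genes were called, and the median log2 difference was -0.04 against 0.07 for all genes. The Pum2 arrays lay entirely above the inputs for 13 factor genes and entirely below for 23, where 28.5% and 16.8% of all genes did so. Among the 2507 genes of higher signal 41.3% were higher and 25.8% lower, against 7 and 11 of the 27 factor genes, with medians of 0.12 and -0.12. In the IgG precipitates 2 factor genes were higher than in input and 21 lower, where 8.25% and 9.72% of all genes were called, with a median of -0.18 against 0.02. The IgG arrays were entirely above the inputs for 6 and below for 29, where the background was 15.9% and 16.2%. Among the 2507 genes of higher signal 18.5% were higher and 23.8% lower in IgG over input, while of the 27 factor genes there limma called 0 higher and 15 lower, with a median of -0.29 against -0.03. Without input replicate 2, 13 factor genes in place of 21 were lower in IgG over input. Of the 2 that were higher there, Eif4g3 kept its call without any single array and Eif4a3l1 did not. The 3 comparisons share arrays, so each is given with its own values.

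The split depended on the scaling, for all genes as for the factor genes. In Pum2 over IgG 14 factor genes were higher and 9 lower in the deposited scaling, 13 and 14 after quantile normalization was run again over the genes, and 13 and 15 when each array was centred on its brighter genes. The higher share of calls was thus 60.9%, 48.1% and 46.4% for factor genes and 63.0%, 53.5% and 46.9% for all genes. In Pum2 over input it was 40.6%, 37.1% and 29.0% for factor genes and 62.3%, 55.8% and 52.2% for all genes.

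**Figure D1:**
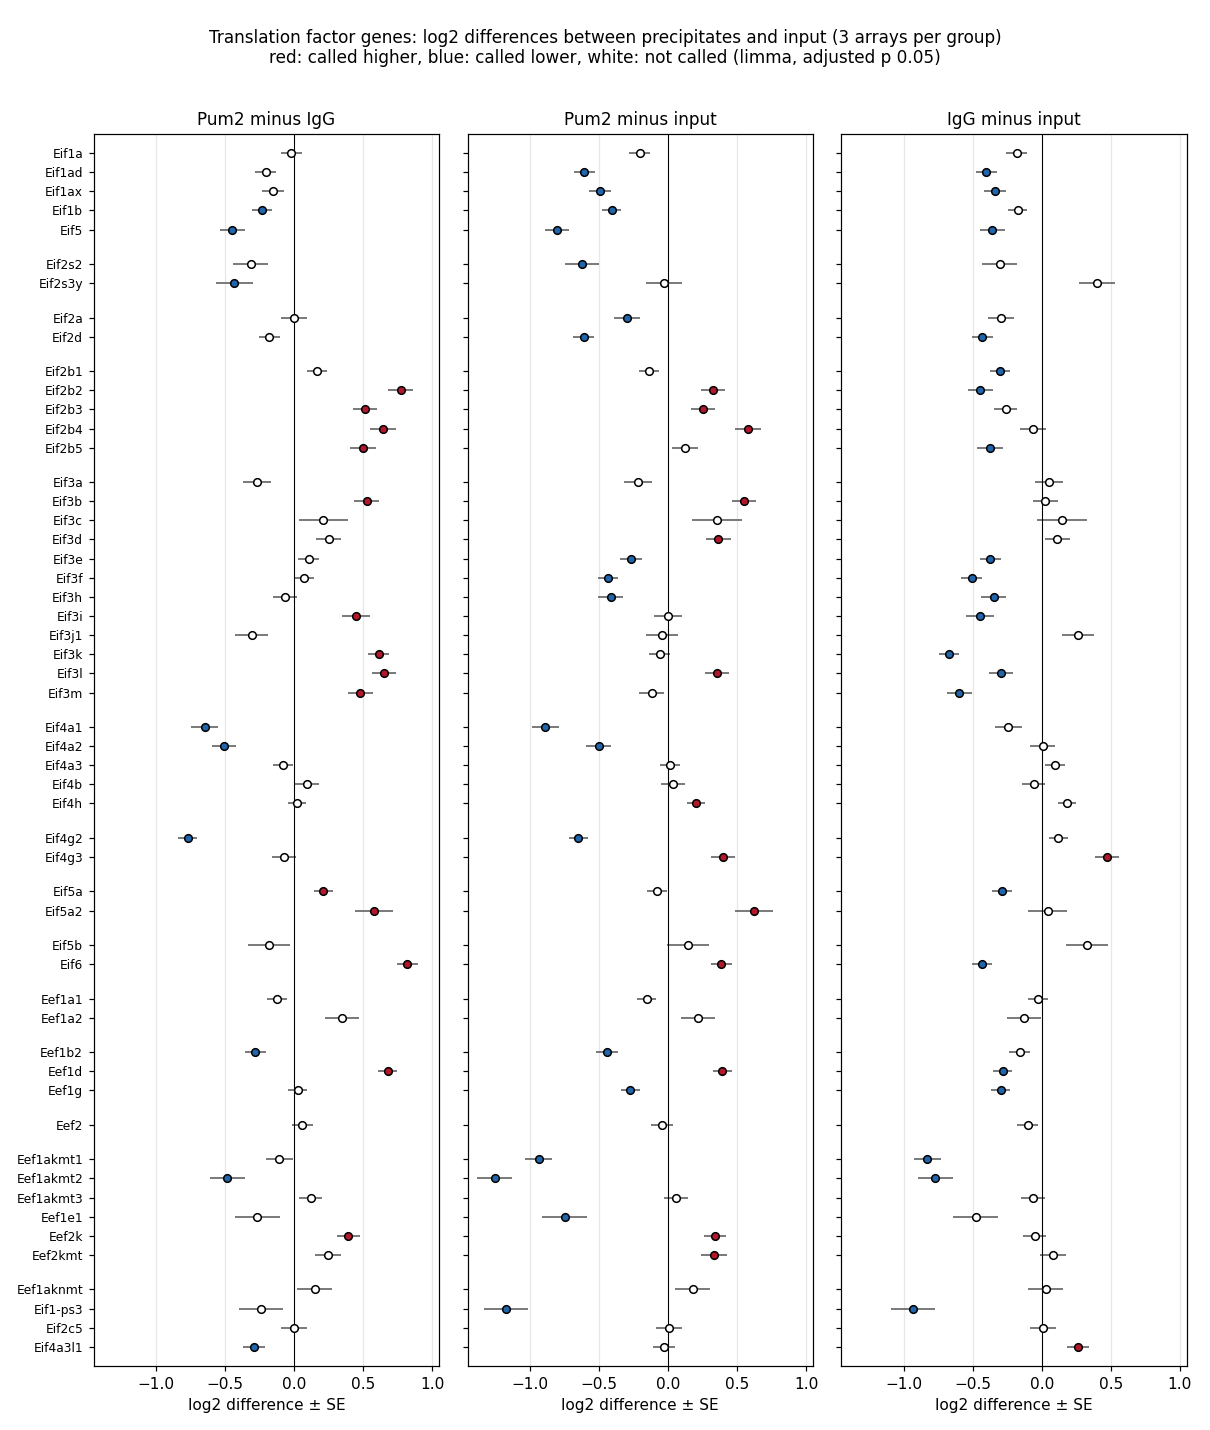
The log2 difference of each of the 53 factor genes is plotted with its standard error for Pum2 minus IgG, Pum2 minus input and IgG minus input, grouped by complex, with 3 arrays a group. Red points were called higher, blue points lower and white points were not called (limma, adjusted p below 0.05); the eIF2B genes lie to the right in Pum2 minus IgG, and most factor genes lie left of 0 in IgG minus input.

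The genes of eIF2B, the exchange factor of eIF2, were mostly higher with Pum2 than with IgG. All 5 subunit genes had their 3 Pum2 arrays above all 3 IgG arrays, where 25.9% of all genes did so. By adjusted p 4 of 5 rose over IgG, where 19.4% of all genes and 38.5% of the 2507 genes of higher signal were higher. The median log2 difference was 0.51, with a range of 0.16 to 0.77. None of the 5 was lower, by adjusted p or at an unadjusted p of 0.05. Their promoters are shown as a description only, and a link of promoter letters to recovery in a precipitate was not tested. RefSeq's promoter table for GRCm38.p6 held 4 of the 5 genes, and 100 bases before to 20 after each start are printed. Capitals mark exact matches to CCGGAAGT (1 form of the site bound by ETS factors) and GGGCGG (the GC box) in either orientation.
Eif2b1: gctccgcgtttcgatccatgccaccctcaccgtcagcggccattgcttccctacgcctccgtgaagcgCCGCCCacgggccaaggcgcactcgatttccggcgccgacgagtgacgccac
Eif2b2: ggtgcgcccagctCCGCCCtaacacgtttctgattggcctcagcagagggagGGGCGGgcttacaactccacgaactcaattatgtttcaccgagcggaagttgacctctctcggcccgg
Eif2b4: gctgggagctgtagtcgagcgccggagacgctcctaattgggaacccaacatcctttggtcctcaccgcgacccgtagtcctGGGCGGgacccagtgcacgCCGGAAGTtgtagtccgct
Eif2b5: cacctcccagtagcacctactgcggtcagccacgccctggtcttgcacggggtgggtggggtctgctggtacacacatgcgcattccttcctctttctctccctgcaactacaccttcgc
They lie at chr5:124579112-124579231 on the minus strand, chr12:85219381-85219500 on the plus strand, chr5:31193120-31193239 on the minus strand and chr16:20498717-20498836 on the plus strand. Within windows of 300 bases (250 before and 50 after the start), CCGGAAGT occurred in 14.3% of 49 promoters of 41 factor genes and in 3.89% of all 32851 promoters. GGGCGG occurred in 67.3% and 35.7%. Among the eIF2B genes CCGGAAGT was in the windows of Eif2b4 and of Eif2b2, for Eif2b2 outside the printed stretch. The other 4 motifs searched, on both strands, were TATAAA (8.16% of the factor genes' promoters and 13.6% of all), CTCTTTC (8.16% and 8.16%), TGACGTCA (2.04% and 1.79%) and TTTCGCG (4.08% and 0.849%). No motif searched lies inside another. A match describes letters only.

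Eif2b2 encodes the beta subunit, part of the regulatory core. Its log2 signal was 9.73, 9.76 and 9.79 in the inputs, 9.41, 9.13 and 9.40 with IgG and 10.00, 10.12 and 10.15 with Pum2. The IgG arrays were the lowest and the Pum2 arrays the highest, with no overlap between any of the 3 groups. It rose by 0.77 ± 0.09 (log2, SE) over IgG (adjusted p = 0.000136) and by 0.33 ± 0.09 over input (adjusted p = 0.0167), and it fell from input to IgG (-0.45 ± 0.09, adjusted p = 0.00695). Eif2b4, the delta subunit of the same core, read 6.99, 6.87 and 7.07 in the inputs, 6.90, 6.78 and 7.07 with IgG and 7.63, 7.58 and 7.47 with Pum2. Input and IgG overlapped, and every Pum2 array stood above both. The rise was 0.64 ± 0.09 over IgG (adjusted p = 0.000552) and 0.58 ± 0.09 over input (adjusted p = 0.00076).

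Eif2b3 and Eif2b5 encode the gamma and epsilon subunits, which form the catalytic arm. Eif2b3 rose over IgG by 0.51 ± 0.08 (adjusted p = 0.00113) and Eif2b5 by 0.50 ± 0.09 (adjusted p = 0.00247). Eif2b1, the alpha subunit, was 0.16 ± 0.07 higher without passing the test (adjusted p = 0.125). Against input Eif2b2, Eif2b3 and Eif2b4 rose. The Eif2b2 call ended without input replicate 1 or Pum2 replicate 2 or 3 (difference 0.31, 0.31 and 0.30, adjusted p = 0.0519, 0.0528 and 0.0581). For Eif2b3 (0.25, adjusted p = 0.0417) it ended without any 1 array other than Pum2 replicate 1 (difference 0.17 to 0.29, adjusted p = 0.0501 to 0.132). With the scaling changed, 1 of 5 was higher and 1 lower against input, both after the repeated quantile normalization and after centring. In IgG over input Eif2b1, Eif2b2 and Eif2b5 fell. The Eif2b1 call (-0.30) ended without input replicate 1 or 2 or IgG replicate 3 (difference -0.28, -0.28 and -0.29, adjusted p = 0.0578, 0.0597 and 0.0511), and the Eif2b5 call (-0.38) without input replicate 2 or IgG replicate 1 or 2 (difference -0.32, -0.36 and -0.35, adjusted p = 0.0722, 0.0571 and 0.0616). In Pum2 over IgG the count of 4 of 5 was the same without any single array.

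**Figure D2:**
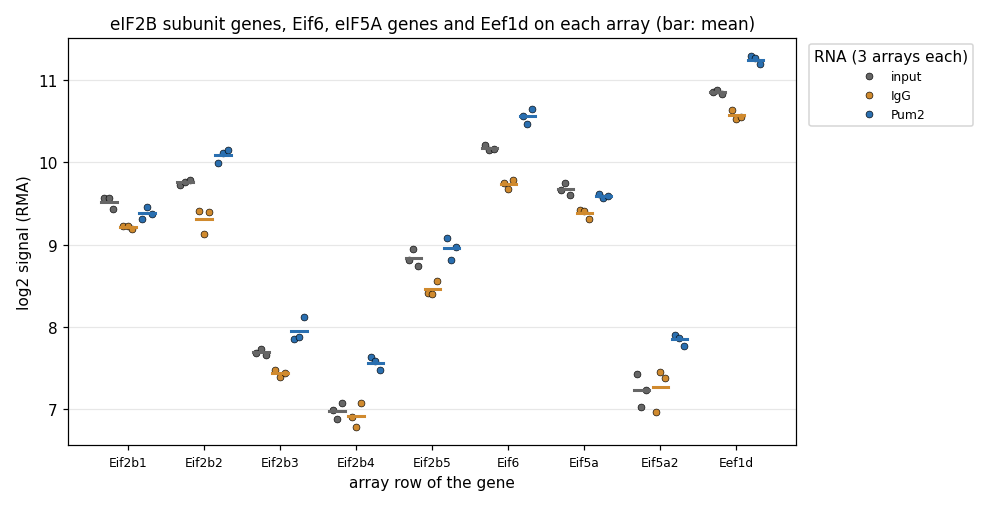
The log2 RMA signal of the eIF2B genes, Eif6, the eIF5A genes and Eef1d is plotted for every array, with grey points for input, orange for IgG and blue for Pum2 and a bar at each mean of 3 arrays. All 3 Pum2 arrays lie above all 3 IgG arrays in each of the 5 eIF2B genes, and Eif2b2 reads 10.00 to 10.15 with Pum2 against 9.13 to 9.41 with IgG.

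Of the 4 genes of eIF2 itself 2 were measured, and neither was higher with Pum2. Eif2s1 and Eif2s3x, for the alpha subunit and the X-linked gamma subunit, had no row under a single symbol and were not analysed here. Eif2s3y, the Y-linked gamma subunit gene, read 6.92, 6.63 and 6.75 in the inputs, 7.27, 7.29 and 6.93 with IgG and 6.83, 6.51 and 6.87 with Pum2. The IgG arrays were the highest and the Pum2 and input arrays overlapped. It fell by 0.43 ± 0.13 from IgG to Pum2 (adjusted p = 0.0307) and was -0.03 ± 0.13 against input (adjusted p = 0.892). That call ended without IgG replicate 1 or 2 or Pum2 replicate 2 (difference -0.38, -0.37 and -0.32, adjusted p = 0.101, 0.103 and 0.113). The labels do not give the sex of the embryos in each pool. Eif2s2, the beta subunit, fell against input (-0.62 ± 0.12, adjusted p = 0.00288) and was -0.31 ± 0.12 against IgG (adjusted p = 0.0855). Eif2a and Eif2d encode proteins that can deliver initiator tRNA without eIF2. Eif2d fell against input (-0.61 ± 0.07, adjusted p = 0.000125), and so did Eif2a (-0.30 ± 0.10, adjusted p = 0.0355). The latter call ended without input replicate 1, 2 or 3 or Pum2 replicate 2 (difference -0.31, -0.31, -0.27 and -0.20, adjusted p = 0.0643, 0.069, 0.101 and 0.119). Neither was called against IgG.

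Of the 12 eIF3 genes measured, 5 rose over IgG, namely Eif3b, Eif3i, Eif3k, Eif3l and Eif3m, and 0 fell, with a median log2 difference of 0.23. The higher share was 41.7%, against 19.4% of all genes and 38.5% of the 2507 genes of higher signal. That count is near the share at like signal. Lower were 11.4% of all genes and 21.4% of those 2507. At an unadjusted p of 0.05 limma gave 6 higher and 2 lower, and 1 was called lower after the repeated quantile normalization, with the intensity trend or without Pum2 replicate 1, and 2 after centring or among genes at or above the median level. eIF3 is the largest initiation factor, a scaffold on the small subunit. Eif3b and Eif3i belong with Eif3g to the module near the mRNA channel, Eif3k and Eif3l form a pair at the periphery, and Eif3m belongs to the octameric core. Eif3g was not analysed here.

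Eif3l read 10.44, 10.45 and 10.48 in the inputs, 10.18, 10.02 and 10.28 with IgG and 10.85, 10.71 and 10.88 with Pum2. The 3 groups did not overlap, with IgG lowest and Pum2 highest. It rose over IgG by 0.65 ± 0.09 (adjusted p = 0.000294) and over input by 0.36 ± 0.09 (adjusted p = 0.00826). Its partner Eif3k had values of 11.24, 11.29 and 11.26 in the inputs, 10.50, 10.55 and 10.72 with IgG and 11.18, 11.21 and 11.22 with Pum2. Here the IgG arrays stood lowest and the Pum2 arrays lay just under the inputs. Eif3k rose over IgG by 0.61 ± 0.08 (adjusted p = 0.000195), fell from input to IgG by 0.67 ± 0.08 (adjusted p = 0.000364) and differed from input by -0.06 ± 0.08 with Pum2 (adjusted p = 0.601).

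Eif3m was likewise lowest with IgG, at 10.31, 10.46 and 10.41 in the inputs, 9.90, 9.66 and 9.83 with IgG and 10.21, 10.21 and 10.41 with Pum2. The IgG arrays were below the others, and input and Pum2 arrays overlapped. It rose over IgG by 0.48 ± 0.09 (adjusted p = 0.00273) and fell from input to IgG by 0.60 ± 0.09 (adjusted p = 0.00168). Eif3i likewise rose over IgG (0.45 ± 0.10, adjusted p = 0.00626) with Pum2 arrays at the level of input (0.00 ± 0.10, adjusted p = 0.999). For Eif3b the pattern was another, with values of 10.26, 10.37 and 10.29 in the inputs, 10.35, 10.24 and 10.42 with IgG and 10.92, 10.95 and 10.71 with Pum2. Input and IgG overlapped and Pum2 stood above both. Eif3b rose by 0.52 ± 0.09 over IgG (adjusted p = 0.00121) and by 0.55 ± 0.09 over input (adjusted p = 0.000662).

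Eif3a encodes the largest subunit, on which the core is built. It read 9.65, 9.59 and 9.62 in the inputs, 9.59, 9.64 and 9.78 with IgG and 9.54, 9.17 and 9.49 with Pum2. Pum2 arrays were lowest in each case, but the difference of -0.27 ± 0.10 from IgG was not called (adjusted p = 0.0794), nor was that from input (-0.22 ± 0.10, adjusted p = 0.144). The core subunits Eif3e, Eif3f and Eif3h fell against input and were not called against IgG. Eif3f read 11.09, 11.11 and 11.13 in the inputs, 10.67, 10.56 and 10.58 with IgG and 10.74, 10.71 and 10.58 with Pum2. Both precipitates lay below every input array and overlapped each other, with -0.44 ± 0.07 for Pum2 over input (adjusted p = 0.000955) and -0.51 ± 0.07 for IgG over input (adjusted p = 0.00118). Eif3h was -0.41 ± 0.09 and Eif3e -0.27 ± 0.08 in Pum2 over input (adjusted p = 0.00461 and 0.0221). The Eif3e call ended without input replicate 3 or Pum2 replicate 2 (difference -0.25 and -0.22, adjusted p = 0.064 and 0.0817).

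Eif3d, the subunit that contacts mRNA caps, rose against input (0.36 ± 0.09, adjusted p = 0.01) and was 0.25 ± 0.09 against IgG (adjusted p = 0.0625). The Eif3d call against input ended when the gene's 2 rows were averaged. The second of these rows lay below the median gene signal of 6.08, with group means of 4.43 to 4.57. Eif3c, a core subunit, had 9.96, 9.50 and 9.95 in the inputs, 10.11, 9.60 and 10.13 with IgG and 10.31, 9.89 and 10.28 with Pum2. Replicate 2 was the lowest array in each group, and the standard error of its Pum2 over IgG difference (0.21 ± 0.18) was the largest among the factor genes (adjusted p = 0.433). Eif3j1, a loosely bound subunit, was -0.31 ± 0.12 over IgG (adjusted p = 0.0785). In IgG over input 7 of 12 eIF3 genes fell and 0 rose by limma, at an unadjusted p of 0.05 too, with a median of -0.32. There 9.72% of all genes were lower and 8.25% higher, and 23.8% and 18.5% of those with like signal. After the repeated quantile normalization 5 of 12 were lower. Of the 7, the Eif3l call (-0.29) ended without any 1 input array, IgG replicate 1 or 2, or Pum2 replicate 1 (difference -0.31 to -0.22, adjusted p = 0.059 to 0.116), and the Eif3h call (-0.35) without input replicate 1 or 2 or IgG replicate 2 (difference -0.34, -0.33 and -0.28, adjusted p = 0.0635, 0.071 and 0.074).

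**Figure D3:**
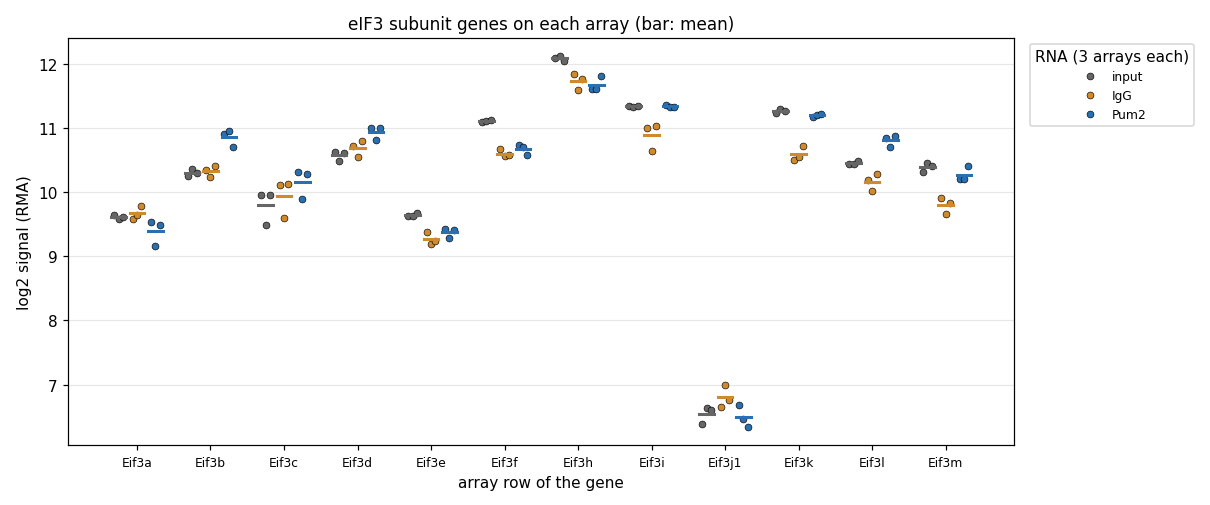
The log2 RMA signal of the 12 measured eIF3 genes is plotted for each array, with grey points for input, orange for IgG and blue for Pum2 and a bar at each mean of 3 arrays. The Pum2 arrays lie above the IgG arrays in Eif3b, Eif3d, Eif3i, Eif3k, Eif3l and Eif3m, and replicate 2 is the lowest array of each group in Eif3c.

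The genes grouped with the factors that select the start codon, Eif1ad among them only by its eIF1A domain, were lower with Pum2 or not called. Of the 5 measured, 0 were higher than IgG, at an unadjusted p of 0.05 too, and 2, Eif5 and Eif1b, were lower. Against IgG 11.4% of all genes and 21.4% of those with like signal were lower. Against input 4 of 5 fell, where 13.1% of all genes and 25.8% of those with like signal were lower, with a median log2 difference of -0.49. Eif5, which stimulates the GTPase of eIF2, read 10.10, 10.28 and 10.19 in the inputs, 9.91, 9.86 and 9.74 with IgG and 9.42, 9.26 and 9.49 with Pum2. The groups did not overlap and were ordered input, IgG, Pum2 from high to low. It fell by 0.45 ± 0.09 from IgG to Pum2 (adjusted p = 0.00347) and by 0.80 ± 0.09 from input to Pum2 (adjusted p = 6.24e-05). Eif1b, a paralog of the scanning factor eIF1, fell by 0.23 ± 0.07 from IgG (adjusted p = 0.0277) and by 0.41 ± 0.07 from input (adjusted p = 0.00104). The Eif1b call against IgG ended without IgG replicate 1 or 2 or Pum2 replicate 1 or 2 (difference -0.22, -0.22, -0.21 and -0.22, adjusted p = 0.0643, 0.0682, 0.0946 and 0.0797). Eif1ax, an eIF1A gene, and Eif1ad, with an eIF1A domain, fell against input by 0.49 ± 0.08 and 0.60 ± 0.08, and were -0.16 ± 0.08 and -0.20 ± 0.08 against IgG (adjusted p = 0.179 and 0.0709). Eif1a was -0.20 ± 0.08 against input (adjusted p = 0.0654). In IgG over input Eif1ad, Eif1ax and Eif5 fell. The Eif1ax call (-0.34) ended without input replicate 2 (difference -0.31, adjusted p = 0.0551), and the Eif5 call (-0.36) without input replicate 2 or 3 or IgG replicate 3 (difference -0.31, -0.36 and -0.31, adjusted p = 0.0703, 0.0503 and 0.0688). Eif1 itself was not analysed here.

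Eif4g2, also called DAP5, encodes an eIF4G relative that lacks the site for the cap-binding protein. Its signal was 12.55, 12.48 and 12.54 in the inputs, 12.60, 12.70 and 12.63 with IgG and 11.93, 11.88 and 11.82 with Pum2. The 3 Pum2 arrays lay well under all others, and IgG lay slightly above input. Among the factor genes it had the largest fall from IgG to Pum2, by 0.77 ± 0.07 (adjusted p = 3.21e-05), and it fell by 0.65 ± 0.07 from input (adjusted p = 4.86e-05). Eif4g3, a scaffold of the canonical kind, gave 8.38, 8.33 and 8.49 in the inputs, 8.96, 8.73 and 8.92 with IgG and 8.78, 8.73 and 8.87 with Pum2. IgG and Pum2 arrays overlapped and both stood above input. It rose from input by 0.40 ± 0.09 with Pum2 (adjusted p = 0.00474) and by 0.47 ± 0.09 with IgG (adjusted p = 0.00428), while the difference between the precipitates was -0.08 ± 0.09 (adjusted p = 0.576). Eif4g1 was not analysed here.

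Both eIF4A helicase genes of the initiation complex fell with Pum2. Eif4a1 read 9.25, 9.34 and 9.25 in the inputs, 8.88, 9.02 and 9.21 with IgG and 8.50, 8.26 and 8.41 with Pum2. Pum2 arrays were the lowest and IgG arrays lay between them and input, without overlap. It fell by 0.65 ± 0.10 from IgG (adjusted p = 0.0007) and by 0.89 ± 0.10 from input (adjusted p = 6.47e-05). Eif4a2, the paralog with more restricted expression, read 8.91, 8.77 and 8.76 in the inputs, 8.80, 8.75 and 8.90 with IgG and 8.47, 8.24 and 8.22 with Pum2. Input and IgG overlapped, and Pum2 was below both, by 0.51 ± 0.09 from IgG (adjusted p = 0.00177) and 0.50 ± 0.09 from input (adjusted p = 0.00147). A second array row of Eif4a1 did not show the fall: it read 7.76, 7.70 and 7.79 with IgG and 7.82, 7.64 and 7.79 with Pum2, a difference of -0.00 ± 0.08 (adjusted p = 0.994 when each row of the table was tested). The rows of Eif4a1 thus disagreed, and which transcripts they read was not tested.

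The further rows that name Eif4a2 alone lay below the median gene signal of 6.08 in each group. The table gives no detection call, so no size of a difference is given for them. The brighter of these had 5.71, 5.91 and 5.74 with IgG and 4.04, 4.52 and 4.06 with Pum2, and the groups did not overlap. Eif4a3, the helicase of the exon junction complex, was -0.08 ± 0.07 over IgG (adjusted p = 0.475). Its row had a mean signal of 6.45, little above the median gene. A brighter row that names Eif4a3, Eif4a3l1 and Gm5576 together rose by 0.86 ± 0.08 over IgG (limma, adjusted p = 0.000113 over all rows). Which of these genes that row reads was not tested. Eif4b and Eif4h, the cofactors that stimulate the helicase in initiation, were 0.09 ± 0.08 and 0.02 ± 0.07 over IgG (adjusted p = 0.459 and 0.842). Eif4h rose against input by 0.20 ± 0.07 (adjusted p = 0.0373). That call ended without any 1 of the input or Pum2 arrays (difference 0.18 to 0.22, adjusted p = 0.0551 to 0.109).

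**Figure D4:**
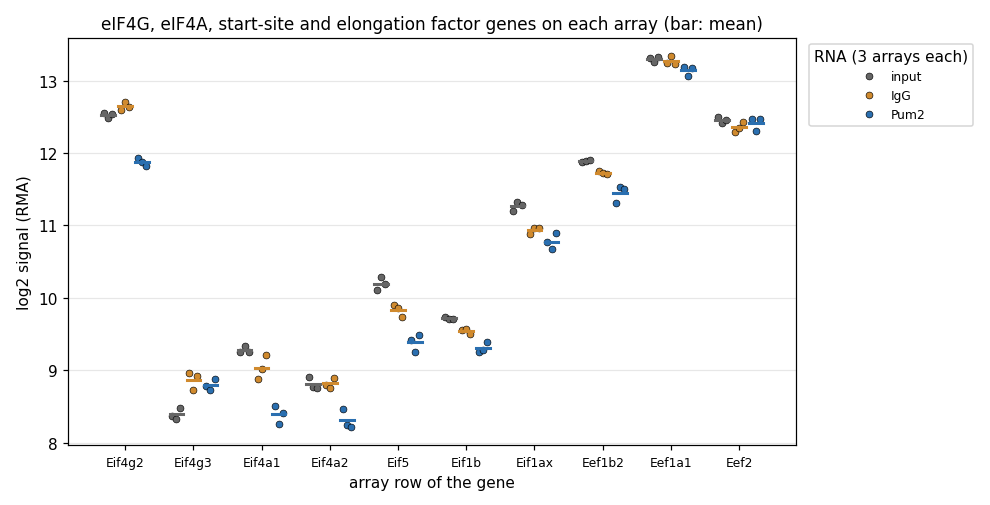
The log2 RMA signal on each array is plotted for eIF4G, eIF4A, start-site and elongation factor genes, with grey points for input, orange for IgG and blue for Pum2 and a bar at each mean of 3 arrays. Eif4g2 reads 11.82 to 11.93 with Pum2 against 12.60 to 12.70 with IgG, whereas Eef2 overlaps in all groups.

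**Figure D5:**
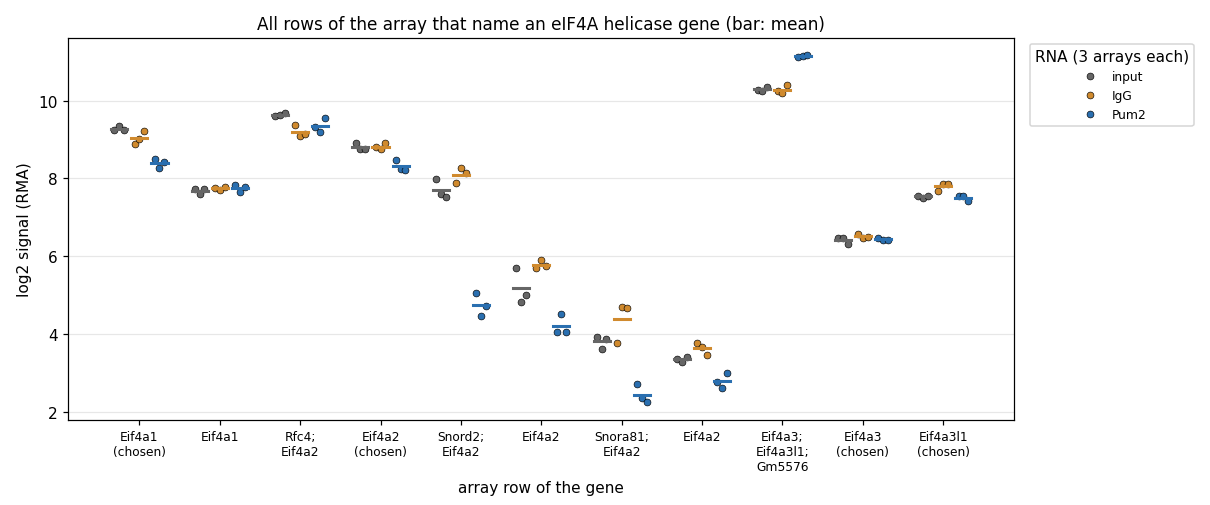
The log2 RMA signal is plotted for every array row that names an eIF4A helicase gene, including rows that name several genes, with grey points for input, orange for IgG and blue for Pum2 and a bar at each mean of 3 arrays. The chosen Eif4a1 row falls with Pum2 while the second Eif4a1 row does not. The further rows that name Eif4a2 alone lie below the median gene signal of 6.08, while the row shared with Rfc4 reads 9.08 to 9.69.

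Of the factors around subunit joining, Eif6 had the largest rise over IgG among the 53 genes. It encodes a protein that keeps the large ribosomal subunit from joining the small one too early. Its values were 10.21, 10.15 and 10.16 in the inputs, 9.75, 9.68 and 9.79 with IgG and 10.56, 10.46 and 10.66 with Pum2. The 3 groups did not overlap: IgG was lowest, input lay between and Pum2 was highest. Eif6 rose by 0.82 ± 0.07 over IgG (adjusted p = 3.51e-05) and by 0.39 ± 0.07 over input (adjusted p = 0.00233), and it fell from input to IgG by 0.43 ± 0.07 (adjusted p = 0.00314). Eif5b, the joining GTPase, was -0.18 ± 0.15 over IgG and its arrays overlapped (adjusted p = 0.419).

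The eIF5A genes encode a small protein that carries the modified lysine hypusine. Eif5a2 read 7.42, 7.02 and 7.23 in the inputs, 6.97, 7.45 and 7.38 with IgG and 7.90, 7.86 and 7.77 with Pum2. Input and IgG overlapped over a wide range, and every Pum2 array was above both, with a rise of 0.58 ± 0.14 over IgG (adjusted p = 0.00928) and 0.62 ± 0.14 over input RNA (adjusted p = 0.00521). The main gene Eif5a read 9.66, 9.75 and 9.60 in the inputs, 9.42, 9.41 and 9.31 with IgG and 9.62, 9.57 and 9.59 with Pum2. Pum2 arrays were above IgG arrays and overlapped input. Its rise of 0.21 ± 0.07 over IgG was just past the threshold (adjusted p = 0.0463), and the call ended after either rescaling and without any 1 of the 9 arrays (difference 0.18 to 0.23, adjusted p = 0.0501 to 0.133). It fell from input to IgG by 0.29 ± 0.07 (adjusted p = 0.018), and that call ended without input replicate 2 or IgG replicate 3 (difference -0.25 and -0.26, adjusted p = 0.0677 and 0.0631).

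The central elongation factors were not called in any comparison of the deposited scaling with all arrays. Eef1a1, the main tRNA-delivering factor, read 13.31, 13.26 and 13.32 in the inputs, 13.24, 13.33 and 13.23 with IgG and 13.19, 13.07 and 13.17 with Pum2. Its Pum2 arrays lay below the others by a small margin, -0.12 ± 0.07 from IgG (adjusted p = 0.228) and -0.15 ± 0.07 from input (adjusted p = 0.128). Eef1a2, the paralog of mature neurons and muscle, read 6.80, 6.57 and 6.88 in the inputs, 6.50, 6.55 and 6.82 with IgG and 7.15, 6.83 and 6.92 with Pum2. Pum2 arrays were all above IgG arrays, by 0.34 ± 0.12, and overlapped input (adjusted p = 0.0581 against IgG and 0.211 against input). Against IgG it was called higher with the replicate block (adjusted p = 0.0443), among genes at or above the median level (0.0221), with the intensity trend (0.0476) and without input replicate 2 (0.0498) or IgG replicate 3 (difference 0.44, adjusted p = 0.0271). Eef2 overlapped in all groups, at 12.50, 12.42 and 12.46 in the inputs, 12.29, 12.35 and 12.43 with IgG and 12.47, 12.30 and 12.47 with Pum2. It differed by 0.06 ± 0.08 from IgG (adjusted p = 0.628) and by -0.04 ± 0.08 from input (adjusted p = 0.723). After the repeated quantile normalization Eef1a1 and Eef2 were called higher in Pum2 over input, by 0.20 (adjusted p = 0.037) and 0.23 (adjusted p = 0.0376), so no direction is given for them there. A second row of Eef1a1, at 6.77, 6.84 and 6.88 with IgG and 6.39, 6.32 and 6.48 with Pum2, fell by 0.43 ± 0.07 (adjusted p = 0.00258 over all rows). In the deposited scaling this row was also called lower in Pum2 over input (-0.29 ± 0.07, limma, adjusted p = 0.0149 over all rows). There the row shared by Eef1a1 and Gm6548 was called lower (-0.28 ± 0.09, adjusted p = 0.038). The row shared by Eef1a1 and Gm7614 was not called there (-0.22 ± 0.09, adjusted p = 0.105).

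The 3 subunit genes of the eEF1B exchange factor differed in their calls. Eef1d, the delta subunit, read 10.86, 10.88 and 10.83 in the inputs, 10.64, 10.53 and 10.56 with IgG and 11.29, 11.27 and 11.20 with Pum2. The groups did not overlap, with IgG lowest and Pum2 highest. Eef1d rose by 0.68 ± 0.07 over IgG (adjusted p = 5.79e-05) and by 0.39 ± 0.07 over input (adjusted p = 0.00118). The call of its fall from input to IgG (-0.28) ended without input replicate 2 (difference -0.27, adjusted p = 0.0541). Eef1b2, a subunit that exchanges the nucleotide on eEF1A, fell by 0.28 ± 0.08 from IgG (adjusted p = 0.0197) and by 0.44 ± 0.08 from input (adjusted p = 0.00129). Against IgG the call ended without IgG replicate 1 or Pum2 replicate 1 (difference -0.27 and -0.21, adjusted p = 0.0544 and 0.0727). Eef1g, the gamma subunit, was 0.03 ± 0.07 over IgG (adjusted p = 0.82), and it fell from input in both precipitates, with Pum2 by 0.27 ± 0.07 (adjusted p = 0.00925) and with IgG by 0.30 ± 0.07 (adjusted p = 0.0117).

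Among enzymes that modify elongation factors, Eef1akmt1 and Eef1akmt2, which methylate lysines of eEF1A, had the largest falls from input to Pum2 among the protein-coding factor genes. Eef1akmt2 read 7.79, 7.89 and 7.77 in the inputs, 7.08, 6.99 and 7.07 with IgG and 6.43, 6.37 and 6.90 with Pum2. All precipitate arrays were below all inputs, and all Pum2 arrays below all IgG arrays. It fell by 1.25 ± 0.13 from input (adjusted p = 3.3e-05) and by 0.48 ± 0.13 from IgG (adjusted p = 0.0145). The second of these calls ended without Pum2 replicate 1 or 2 (difference -0.42 and -0.39, adjusted p = 0.0606 and 0.0574). Eef1akmt1 read 9.60, 9.70 and 9.58 in the inputs, 8.69, 8.85 and 8.85 with IgG and 8.58, 8.89 and 8.60 with Pum2. The precipitates overlapped and both lay below input, by 0.94 ± 0.10 with Pum2 (adjusted p = 4.29e-05) and 0.83 ± 0.10 with IgG (adjusted p = 0.000436).

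Eef1e1, a protein of the multi-synthetase complex, read 10.57, 10.72 and 10.30 in the inputs, 10.04, 10.17 and 9.94 with IgG and 9.73, 10.14 and 9.48 with Pum2. Pum2 arrays were below input arrays and overlapped IgG, and it fell by 0.75 ± 0.16 from input (adjusted p = 0.00466). Eef2k, the kinase that inhibits eEF2, rose by 0.39 ± 0.08 over IgG (adjusted p = 0.00464) and 0.34 ± 0.08 over input (adjusted p = 0.00832). Eef2kmt, a methyltransferase of eEF2, rose over input (0.33 ± 0.09, adjusted p = 0.0192). That call ended without input replicate 2 or 3 or Pum2 replicate 2 (difference 0.28, 0.33 and 0.27, adjusted p = 0.0725, 0.0517 and 0.0755). Eef1akmt3 was not called in any comparison, and Eef1akmt4 was not analysed here.

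The name rule also took in 4 genes outside these complexes. Eif1-ps3 is annotated as a pseudogene and Eif2c5 as a long noncoding RNA with an old Argonaute name. Eif1-ps3 read 9.08, 9.40 and 9.67 in the inputs, 8.59, 8.56 and 8.21 with IgG and 8.31, 8.04 and 8.29 with Pum2. All precipitate arrays were below all inputs, by 1.17 ± 0.16 with Pum2 (adjusted p = 0.000218) and 0.93 ± 0.16 with IgG (adjusted p = 0.0027). As a near copy of Eif1, its row is uncertain as a measure of this gene alone. Eif4a3l1, an Eif4a3-like gene, read 7.56, 7.51 and 7.55 in the inputs, 7.68, 7.87 and 7.85 with IgG and 7.56, 7.56 and 7.41 with Pum2. IgG arrays were the highest, above Pum2 by 0.29 ± 0.08 (Pum2 over IgG -0.29, adjusted p = 0.0189) and above input by 0.26 ± 0.08 (adjusted p = 0.0471). The call against IgG ended without IgG replicate 2 or 3 or Pum2 replicate 3 (difference -0.26, -0.26 and -0.24, adjusted p = 0.0616, 0.0596 and 0.0684), and that of IgG over input without any 1 input array, IgG replicate 2 or 3, or Pum2 replicate 1 or 2 (difference 0.23 to 0.27, adjusted p = 0.0613 to 0.13). Eif2c5 and Eef1aknmt were not called in any comparison.

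Paralog pairs were compared array by array, as the difference of the 2 genes' log2 values. There were 4 pairs with both genes measured and 12 tests, and an exact two-sided permutation test of 3 against 3 arrays cannot go below p = 0.1, so none could pass. Eef1a1 minus Eef1a2 differed by -0.47 ± 0.14 in Pum2 over IgG with no overlap of arrays (exact p = 0.1, adjusted p = 0.171), and by -0.37 ± 0.10 in Pum2 over input, also without overlap (exact p = 0.1, adjusted p = 0.171). Eif5a minus Eif5a2 differed by -0.37 ± 0.17 in Pum2 over IgG and by -0.70 ± 0.15 in Pum2 over input, again without overlap (exact p = 0.1 and adjusted p = 0.171 for both). For Eif4a1 minus Eif4a2 the value was -0.14 ± 0.09 in Pum2 over IgG, where arrays overlapped (exact p = 0.2, adjusted p = 0.24), and -0.39 ± 0.09 in Pum2 over input, where they did not (exact p = 0.1, adjusted p = 0.171). Eif1a minus Eif1ax gave 0.13 ± 0.08 in Pum2 over IgG, with overlap (exact p = 0.2, adjusted p = 0.24), and 0.29 ± 0.07 in Pum2 over input, without (exact p = 0.1, adjusted p = 0.171). In IgG over input only Eif4a1 minus Eif4a2 did not overlap, at -0.25 ± 0.10 (exact p = 0.1, adjusted p = 0.171).

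Other genes of translation differed by class in Pum2 over IgG, where 19.4% of all genes were higher and 11.4% lower. Of the 2507 genes of higher signal 38.5% were higher and 21.4% lower. Of 19 measured genes of the cytosolic aminoacyl-tRNA synthetases and their scaffold proteins, which charge tRNAs, 15 rose and 0 fell, with a median log2 difference of 0.50. Limma's unadjusted p of 0.05 gave 16 higher and 0 lower. Wars rose by 0.96 ± 0.08 (adjusted p = 1.53e-05) and Mars1 by 0.68 ± 0.08 (adjusted p = 0.000115). Of 57 cytosolic ribosomal protein genes 3 rose and 28 fell, with a median of -0.23. In Pum2 over input 1 rose and 50 fell, with a median of -0.83, where 21.6% of all genes were higher and 13.1% lower. In IgG over input 0 rose and 43 fell, with a median of -0.51, where 8.25% of all genes were higher and 9.72% lower. Most of these genes thus fell from input with IgG too. Rpl29 and Rps12 fell by 1.23 ± 0.08 and 1.17 ± 0.07 from IgG (adjusted p = 4.9e-06 and 3.96e-06), whereas Rpl34 and Rps16 rose by 0.87 ± 0.11 and 0.87 ± 0.13 (adjusted p = 0.000183 and 0.00064). Many ribosomal protein genes have near-identical pseudogenes that such probes can share.

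Of the 4 eIF2 kinases, which shut off initiation by phosphorylating eIF2 under stress, 3 rose over IgG and 0 fell (3 and 1 at limma's unadjusted p of 0.05). By adjusted p 19.4% of all genes were higher over IgG and 11.4% lower. Eif2ak3, the kinase of the endoplasmic reticulum, rose by 0.78 ± 0.11 (adjusted p = 0.000342) and Eif2ak1, the haem-regulated kinase, by 0.61 ± 0.09 (adjusted p = 0.000496). Of 17 initiation cofactors 3 rose and 7 fell, beside the same shares of all genes. Mknk2, a kinase of eIF4E, rose by 0.98 ± 0.11 (adjusted p = 0.000101) and Larp4b by 0.47 ± 0.08 (adjusted p = 0.00152). Pabpc1, the cytoplasmic poly(A)-binding protein, fell by 0.97 ± 0.08 (adjusted p = 2.68e-05) and Paip2, its inhibitor, by 0.71 ± 0.08 (adjusted p = 0.000123).

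Of 10 mitochondrial translation factors 2 rose and 3 fell. Tufm and Gfm1, elongation factors of mitochondria, rose by 0.81 ± 0.09 and 0.47 ± 0.07 (adjusted p = 8.06e-05 and 0.000544). Mtif2, the mitochondrial initiation factor, and Guf1 fell by 0.70 ± 0.13 and 0.35 ± 0.09 (adjusted p = 0.00212 and 0.0116). Of 5 termination and recycling factors 2 rose and 0 fell, also at limma's unadjusted p of 0.05, with a median of 0.20. The counts against IgG are read beside the 19.4% of all genes higher and 11.4% lower.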

How the data were processed

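RNA of 9 samples, 3 each of input, IgG and Pum2 precipitate, was amplified with the GeneChip Pico Kit and hybridised to Mouse Gene 2.0 ST arrays, per the labels' protocols. The authors deposited log2 values made by RMA in Affymetrix Expression Console, per the submitters' processing notes. RMA corrects background, quantile normalizes and summarises probes, so values are relative within an array. Tool versions and the genome build were not given in the sources used here. The table has 41345 rows, of which 23521 carry 1 symbol, 1814 several and 16010 none here. Names came from the platform's probe table, and all 53 factor genes matched RefSeq identifiers of GRCm38.p6.

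A linear model of the 9 arrays by group, with 6 residual degrees of freedom, was fitted with limma 3.58.1 (R 4.3.3), with Benjamini-Hochberg adjustment over 22180 genes, and the scripts were tested on simulated data. Array number and signal over background limit precision. Named with values on every array were a set of central factors and, per comparison, the 6 called factor genes with the largest difference in each direction; Eif3c was added after its values were seen. Other genes were named by the 2 largest moderated t of each direction in a list. Members and lists were chosen with earlier results of these data known. Alternatives were a replicate block, only the compared groups in the model, a level filter, an intensity trend with robust prior, quantile normalization run again, centring on brighter genes, the mean of a gene's rows, every row tested, a log2 threshold and leaving out each array.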

Additional observations from a re-analysis of the deposited data

Results flagged for a closer look

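A row that names Eif4a3, Eif4a3l1 and Gm5576 together entered no comparison because it has several symbols, and it carried a signal above the control precipitate. It read 10.27, 10.25 and 10.35 in the inputs, 10.24, 10.20 and 10.40 with IgG and 11.11, 11.15 and 11.17 with Pum2, a log2 difference of 0.86 ± 0.08 in Pum2 over IgG (limma, adjusted p = 0.000113 over all rows). The rows that name Eif4a3 alone and Eif4a3l1 alone differed by -0.08 and -0.29. Which of the 3 genes the joint row reads was not tested.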

How the results depend on the processing

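Counts of called factor genes moved by more than 1.5 times under some settings. Lower calls in Pum2 over IgG were 9 as reported, 14 among genes at or above the median level, 14 after quantile normalization was run again and 15 after centring. With a log2 threshold of 0.25 in the test, 8 rose and 2 fell in Pum2 over IgG, 2 and 11 in Pum2 over input, and 0 and 5 in IgG over input. The 2 higher calls in IgG over input became 1 with only the compared groups in the model or with every row tested, and 4 with the level filter, the intensity trend or the repeated normalization. That normalization reversed 2 values, both in Pum2 over input: Eef1a1 became 0.20 (adjusted p = 0.037) and Eef2 0.23 (adjusted p = 0.0376). Both rescalings ended the calls of Eif5a in Pum2 over IgG, Eif2b2 and Eif2b3 in Pum2 over input and Eif3l in IgG over input, centring also ended those of Eef2kmt and Eif4h in Pum2 over input, and the repeated normalization that of Eif3h in IgG over input; the cause was not tested. Leaving out 1 array gave 13 to 15 higher and 6 to 9 lower in Pum2 over IgG, 9 to 12 and 17 to 19 in Pum2 over input, and 1 to 2 and 13 to 24 in IgG over input, with medians of 0.00203 to 0.0436, -0.0781 to -0.0434 and -0.224 to -0.179. Of 23, 32 and 23 calls, 17, 26 and 14 held without any single array. Same-numbered arrays did not all deviate together (Pum2 with IgG r = 0.0015, 0.125 and 0.0932; Pum2 with input 0.0534, 0.1256 and 0.1351; IgG with input 0.0253, 0.0736 and 0.0938), so the numbers were not taken as pairs. Among brighter genes r was -0.0365, 0.2934 and 0.1991, then 0.2214, 0.3553 and 0.3335, then 0.0185, 0.1864 and 0.2597. There every Pum2 array correlated best with the input of its own number. The labels call the inputs corresponding but do not say that equal numbers share a lysate. A pairing is thus possible, and the main model does not use it. With the replicate block 15 rose and 9 fell in Pum2 over IgG, 12 and 19 in Pum2 over input, and 2 and 23 in IgG over input. The block ended the calls of Eif5a, of Eif2b3 and Eif4h, and of Eif4a3l1 in these comparisons, and added Eef1a2 and Eif3d, then Eif3c, then Eef1e1, Eif2a and Eif5b.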

Other observations

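Some rows name Eif4a2 together with a small nucleolar RNA it hosts. The row naming Snord2 and Eif4a2 read 7.98, 7.60 and 7.52 in the inputs, 7.87, 8.26 and 8.13 with IgG and 5.07, 4.46 and 4.73 with Pum2, and it fell by 3.33 ± 0.18 from IgG (limma, adjusted p = 1.26e-05 over all rows). The row naming Snora81 and Eif4a2 was below the median gene signal of 6.08 on every array, at 3.78, 4.69 and 4.67 with IgG and 2.71, 2.36 and 2.24 with Pum2. A row shared by Rfc4 and Eif4a2 differed by 0.15 ± 0.11 in Pum2 over IgG (adjusted p = 0.386) and was lower in IgG over input (-0.44 ± 0.11, adjusted p = 0.0398). In Pum2 over IgG the 2 rows shared by Eif2s3x and Gm2223 differed by -0.21 ± 0.14 and -0.20 ± 0.10, and the row shared by Eif3j2 and Eif3j1 by -0.09 ± 0.10, none of them called. In Pum2 over input the row of Eif3j2 and Eif3j1 was called lower (-0.38 ± 0.10, adjusted p = 0.0197). The first Eif2s3x row was called lower there too (adjusted p = 0.0398). Both Eif2s3x rows had group means below the median gene signal of 6.08.

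Replicate 2 was the lowest array in all 3 groups for 7 of the 53 factor genes (Eif3c, Eif3d, Eif3e, Eif3i, Eif4g3, Eif5b and Eif6), or 13.2%, against 5.57% of all 22180 genes. For replicate 1 the shares were 1.89% and 4.18%, and for replicate 3 they were 3.77% and 4.13%.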
